A study of Homo sapiens with 6 samples.

Results

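Apolipoproteins are the protein parts of lipoproteins, the particles that carry fat and cholesterol in blood. The 7 genes described here are APOA1, APOA2, APOA4, APOB, APOC3, APOE and APOM, out of 14884 genes with a named row on the array. They were chosen by symbol from the apolipoprotein family, with their values on these same arrays already known, and where a gene had several rows the brightest was used. Their levels and differences are therefore given as a description and carry no p-value. Where a member is said below to be called or not, that describes its row in the fit over all genes. Such a call is no test of a gene picked with its values known. Liver, intestine and the embryonic yolk sac make most apolipoproteins. APOE is also made by many other cell types, among them macrophages and astrocytes, so it stands here as the widely expressed member beside the liver and intestinal ones.

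Total RNA was measured on 6 arrays from clones of H9, a human embryonic stem cell line, in 3 groups of 2 arrays. All clones carried a transduced vector with an EF1α promoter and eGFP, were sorted for GFP and a surface antigen of pluripotent cells, and each grew from 1 plated cell. They were kept on mouse embryonic fibroblasts, in medium conditioned by such fibroblasts with 8 ng/ml of bFGF. CTRL clones had eGFP alone, gamma_ON clones also had H2A.X with S139E, a glutamate in place of the serine that DNA damage kinases phosphorylate, and gamma_OFF clones had H2A.X with T136A and S139A, which cannot be phosphorylated there. No group had added H2A.X without a substitution, so against CTRL an effect of a substitution and one of added H2A.X cannot be told apart. Gamma_ON and gamma_OFF both had added H2A.X, at levels that were not compared. The labels do not say whether the 2 arrays of a group came from separate clones or cultures, so the spread between them may be technical. A group may hold as few as 1 clone, so an effect of a vector and a difference between clones cannot be told apart.

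All 6 arrays carried pluripotent cell markers, with 11 measured genes averaging between 10.11 and 10.40 on the log2 scale. NANOG and POU5F1 were dimmer, at 6.26 to 7.29 and 7.10 to 8.05, beside array medians of 7.09 to 7.14 over all named genes. Between arrays of the same group Pearson's r across all 14884 genes, which are not independent replicates, was 0.994 for CTRL, 0.994 for gamma_ON and 0.986 for gamma_OFF. Gamma_OFF replicate 2 stood apart, with r between 0.969 and 0.986 to the other arrays, so gamma_OFF differences from CTRL are also given without it, or with the adjusted p that results. The H2A.X transgene's own level was not analysed here. Tests were made with limma, over all genes, and a gene is said to be called where its Benjamini-Hochberg adjusted p was under 0.05. In gamma_ON against CTRL 2203 of all 14884 genes had an unadjusted p under 0.05 by limma. The count was 4519 in gamma_OFF against CTRL and 4910 in gamma_ON against gamma_OFF. Unadjusted counts in the gene lists below stand beside those over all genes. Both vectors were compared with the same CTRL arrays, so those comparisons share their controls.

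The 7 genes did not move as a block. In gamma_ON, APOB, APOC3, APOA4, APOA2 and APOM lay above CTRL by 2.38, 1.68, 1.34, 1.11 and 0.74 on the log2 scale, while APOA1 and APOE lay at 0.20 and -0.18. In gamma_OFF, APOA2 lay 1.24 below CTRL (log2 difference -1.24) and APOA4 lay 0.71 above it, so the 7 genes held both a lower and a higher one. In bulk RNA, a change in the number of cells of a type and one in RNA per cell cannot be told apart. Limma called 5 of the 7 genes higher in gamma_ON than in CTRL, where 0.739% of all genes were called higher. In gamma_OFF against CTRL it called 1 higher and 1 lower, where 2.77% of all genes were called higher and 6.08% lower, and in gamma_ON against gamma_OFF it called 5 higher, where 3.98% were called higher. Since the genes were picked with these contrasts known, nothing is read from those counts. The median difference of the 7 genes was 1.11, -0.05 and 0.73 in the 3 comparisons, beside 0.02, 0.01 and 0.02 over all genes.

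**Figure D1:**
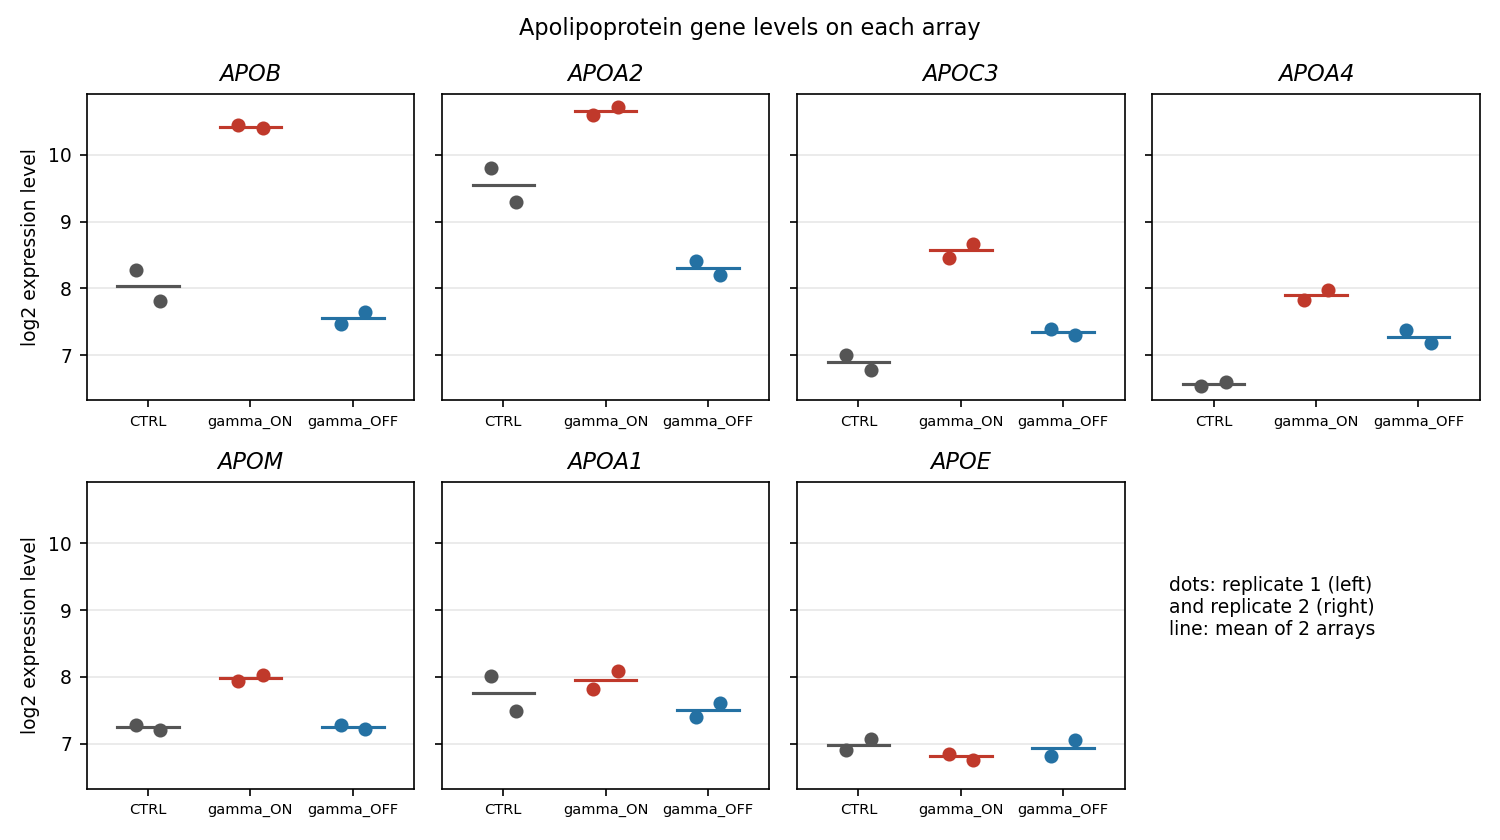
Log2 expression level (y axis) of each of the 7 apolipoprotein genes on the 6 arrays, with 1 dot per array and a line at the mean of 2 arrays, for the groups on the x axis. APOB lies at 10.40 and 10.44 in gamma_ON against 8.27 or below elsewhere, APOA2 is lowest in gamma_OFF, APOA4 and APOC3 are lowest in CTRL, and APOE stays between 6.76 and 7.06.

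APOA2, APOA4 and APOE had 3 different patterns: lower than CTRL in gamma_OFF, higher than CTRL in both vectors, and level in all groups. The 250 bases before their start sites are shown because they put these patterns side by side, among the genes with a window. They come from RefSeq, build GRCh38.p14, which held windows for 4 of the 7 genes, APOM included. Capitals mark matches, on either strand, to 6 short motifs chosen after these sequences were seen: TGTTTAC, known as a core of the sites of FOXA factors, AAGTCCA, known from sites of the liver and gut factor HNF4, AGGTCA, the element that many nuclear receptors bind, GGGCGG, the GC box that Sp factors bind, TATAAA, the TATA box of many regulated promoters, and CCAAT, the box bound by NF-Y. No match shown overlaps another. APOA2 lies on the minus strand at chr1:161223629-161223878, APOA4 on the minus strand at chr11:116823305-116823554, and the first of the 3 APOE start sites on the plus strand at chr19:44905546-44905795.
APOA2: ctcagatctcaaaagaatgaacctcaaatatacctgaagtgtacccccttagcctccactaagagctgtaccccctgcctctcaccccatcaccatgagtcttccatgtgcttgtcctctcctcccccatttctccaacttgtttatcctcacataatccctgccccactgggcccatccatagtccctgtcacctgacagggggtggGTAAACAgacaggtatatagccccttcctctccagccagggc
APOA4: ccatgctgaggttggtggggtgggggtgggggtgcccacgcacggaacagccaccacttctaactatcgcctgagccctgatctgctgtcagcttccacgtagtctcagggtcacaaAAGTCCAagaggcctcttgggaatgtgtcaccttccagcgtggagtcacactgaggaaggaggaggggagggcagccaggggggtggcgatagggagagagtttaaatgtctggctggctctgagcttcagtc
APOE: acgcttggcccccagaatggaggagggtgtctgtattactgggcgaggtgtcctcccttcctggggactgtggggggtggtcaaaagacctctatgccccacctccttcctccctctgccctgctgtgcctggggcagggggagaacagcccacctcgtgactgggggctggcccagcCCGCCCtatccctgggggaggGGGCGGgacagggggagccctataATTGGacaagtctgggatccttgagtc
The APOA2 window held the FOXA letters once, on its minus strand, from -42 to -36 before the start. The APOA4 window held the HNF4 letters once, from -133 to -127. APOE held the GC box at -72 to -67 and at -51 to -46, and CCAAT on the minus strand at -27 to -23. Over all 35116 RefSeq windows of 250 bases, 2.98% held the FOXA letters, 2.82% the HNF4 letters, 12.1% AGGTCA, 42.6% the GC box, 10.7% TATAAA and 32.0% CCAAT. None of the 6 motifs was found in the APOM window. A match is a run of letters and not a shown binding site, and no factor was measured on this DNA.

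APOB, APOA1 and APOA2 encode structural proteins of lipoproteins: APOB wraps the triglyceride-rich particles and LDL, and APOA1 and APOA2 are the main proteins of HDL. APOB was at 8.27 and 7.81 on the CTRL arrays, 10.44 and 10.40 on the gamma_ON arrays, and 7.46 and 7.65 on the gamma_OFF arrays. The gamma_ON arrays were high and apart from all others, with 2.13 log2 units between the lower gamma_ON and the higher CTRL array. The group means were 8.04 ± 0.33 (SD, n = 2) in CTRL, 10.42 ± 0.03 in gamma_ON and 7.55 ± 0.13 in gamma_OFF. That is a 5.22-fold higher level in gamma_ON than in CTRL (log2 difference 2.38, SE 0.16) and a 7.30-fold higher one than in gamma_OFF (2.87, SE 0.16). Gamma_OFF lay at -0.48 (SE 0.16) from CTRL, with groups that did not overlap but with 0.16 between their nearest arrays, and at -0.58 (SE 0.19) without gamma_OFF replicate 2. With 1 CTRL or gamma_ON array left out the gamma_ON difference from CTRL lay between 2.15 and 2.62. After rescaling of the signal range it was 2.32, and the other fits left it at 2.38.

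APOA2 was at 9.80 and 9.29 in CTRL, 10.60 and 10.71 in gamma_ON, and 8.41 and 8.20 in gamma_OFF. The 3 groups did not overlap, with gamma_ON highest, CTRL between and gamma_OFF lowest. Gamma_ON was 2.15-fold above CTRL (log2 difference 1.11, SE 0.17) and gamma_OFF was 2.36-fold below it (-1.24, SE 0.17). Without gamma_OFF replicate 2 the second difference was -1.14 (SE 0.20). The gamma_ON difference was not called without CTRL replicate 2 (0.85, SE 0.17), without gamma_ON replicate 1 (1.16, SE 0.23) or without gamma_ON replicate 2 (1.05, SE 0.23). Between gamma_ON and gamma_OFF APOA2 differed 5.09-fold (2.35, SE 0.17).

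APOA1, the other main HDL protein gene, was at 8.01 and 7.49 in CTRL, 7.82 and 8.08 in gamma_ON, and 7.39 and 7.61 in gamma_OFF. The CTRL arrays differed by more than the group means did, and both vector groups overlapped with CTRL. Its differences from CTRL were 0.20 (SE 0.18) in gamma_ON and -0.25 (SE 0.18) in gamma_OFF. With single arrays left out they ran from -0.06 to 0.45 and from -0.51 to 0.01, so neither direction held. Gamma_ON lay above gamma_OFF without overlap, by 0.45 (SE 0.18), and by 0.55 without gamma_OFF replicate 2, where the difference from CTRL was -0.36.

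APOC3 and APOA4 encode proteins that move between particles. APOC3 slows the clearance of triglyceride by inhibiting lipoprotein lipase, and APOA4 is made mainly by intestine, on chylomicrons. APOC3 was at 7.0 and 6.78 in CTRL, 8.46 and 8.67 in gamma_ON, and 7.39 and 7.30 in gamma_OFF. The CTRL arrays were lowest and the gamma_ON arrays highest, with no overlap among the 3 groups. The level in gamma_ON was 3.20-fold that in CTRL (log2 difference 1.68, SE 0.13) and 2.34-fold that in gamma_OFF (1.22, SE 0.13). Gamma_OFF lay 0.45 above CTRL (SE 0.13, and 0.50 without gamma_OFF replicate 2).

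APOA4 was at 6.53 and 6.59 in CTRL, 7.83 and 7.97 in gamma_ON, and 7.37 and 7.18 in gamma_OFF. As for APOC3, CTRL was lowest and gamma_ON highest, and the groups did not overlap. The difference from CTRL was 1.34 in gamma_ON (SE 0.12, 2.53-fold) and 0.71 in gamma_OFF (SE 0.12, 1.64-fold), the latter 0.81 without gamma_OFF replicate 2. The gamma_OFF difference was not called without CTRL replicate 1 (0.68) or CTRL replicate 2 (0.74). Gamma_ON lay 0.63 above gamma_OFF (SE 0.12), which was not called without either CTRL array (0.63), gamma_ON replicate 1 (0.70), gamma_ON replicate 2 (0.56) or gamma_OFF replicate 2 (0.53). That call was also lost with array weights, with only the 2 groups compared and after rescaling of the signal range.

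APOM, a liver and kidney gene, encodes an HDL protein that carries the lipid mediator sphingosine-1-phosphate. It was at 7.28 and 7.20 in CTRL, 7.93 and 8.02 in gamma_ON, and 7.28 and 7.22 in gamma_OFF. The gamma_ON arrays were high, and CTRL and gamma_OFF overlapped. Gamma_ON lay 0.74 above CTRL (SE 0.11, 1.67-fold) and 0.73 above gamma_OFF (SE 0.11), while gamma_OFF lay 0.01 from CTRL (SE 0.11, and 0.04 without gamma_OFF replicate 2). The first difference was not called without CTRL replicate 1 (0.78), CTRL replicate 2 (0.70), gamma_ON replicate 1 (0.78) or gamma_ON replicate 2 (0.69). The second was not called without gamma_ON replicate 1 (0.77), gamma_ON replicate 2 (0.68) or gamma_OFF replicate 2 (0.70). APOM had 7 rows, of which 6 held identical values and so count as 1 measurement. Its other distinct row gave 0.67 in gamma_ON and -0.19 in gamma_OFF against CTRL. The remaining 6 genes had 1 row each.

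APOE encodes the ligand through which remnant particles bind LDL receptor family proteins. It was at 6.90 and 7.06 in CTRL, 6.85 and 6.76 in gamma_ON, and 6.82 and 7.05 in gamma_OFF. All 6 arrays lay within 0.30, and gamma_OFF overlapped with both other groups. Gamma_ON lay at -0.18 from CTRL (SE 0.13), with 0.05 between the nearest arrays, and gamma_OFF at -0.05 (SE 0.13), or -0.16 without gamma_OFF replicate 2. APOE was also the 1 gene of the 7 whose mean fell under the median of all genes, so a dim signal limits what its row can show. Gamma_ON and CTRL did not overlap for 6 of the 7 genes, 5 higher and APOE lower, where 52.4% of all genes did not overlap, 30.0% higher and 22.3% lower. For gamma_OFF and CTRL the count was 4 of 7, 2 higher and 2 lower, where 61.3% did not, 31.1% higher and 30.2% lower. For gamma_ON and gamma_OFF it was 6 of 7, all higher, where 63.3% did not and 35.8% were higher. Nothing is read from these counts either.

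**Figure D2:**
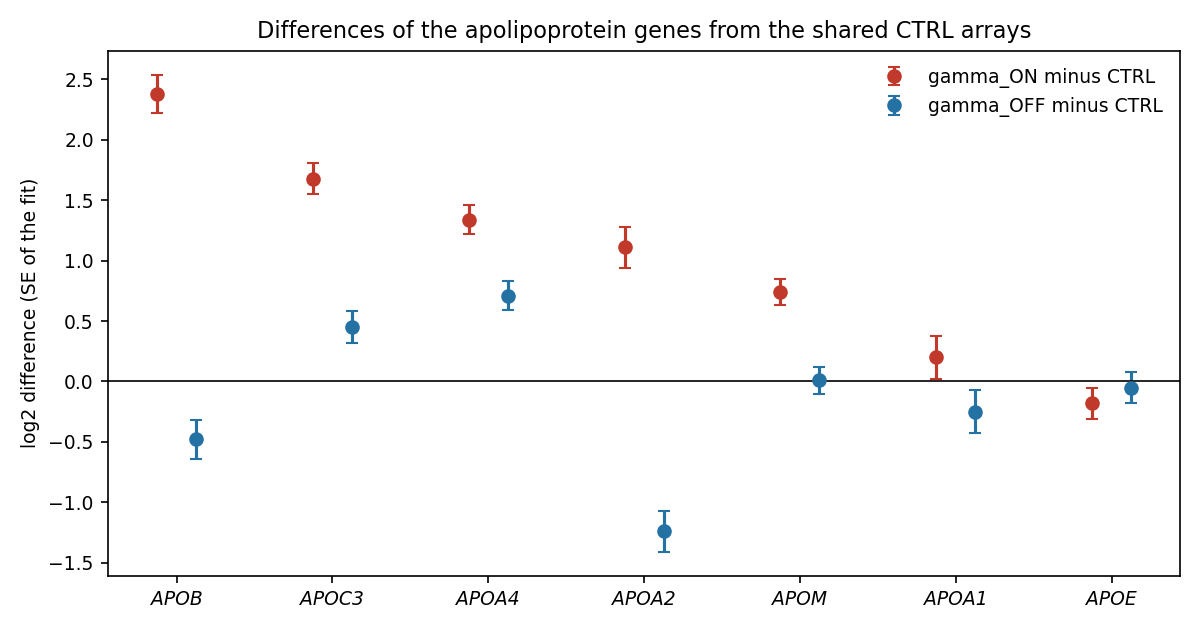
Log2 difference from the 2 CTRL arrays (y axis, bars are the SE of the limma fit) for each apolipoprotein gene (x axis), gamma_ON in red and gamma_OFF in blue. APOB runs from 2.38 to -0.48 and APOA2 from 1.11 to -1.24, APOC3 and APOA4 lie above 0 for both vectors, and APOE lies near 0 for both.

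The other genes were also taken against APOE on the same array. APOE spanned only 0.30 over the 6 arrays, so this could change their patterns little and is no further check of them. The log2 difference APOB minus APOE was 1.37 and 0.74 on the CTRL arrays, 3.59 and 3.64 on the gamma_ON arrays, and 0.64 and 0.60 on the gamma_OFF arrays. For APOC3 minus APOE it was 0.10 and -0.28 in CTRL, 1.61 and 1.91 in gamma_ON, and 0.56 and 0.25 in gamma_OFF. The shift of this difference between gamma_ON and CTRL was 2.56 for APOB, 1.85 for APOC3, 1.52 for APOA4, 1.28 for APOA2, 0.91 for APOM and 0.37 for APOA1. In 5 of these 6 genes the gamma_ON and CTRL arrays did not overlap, and for APOA1 they did. Between gamma_OFF and CTRL the shift ran from -1.19 for APOA2 to 0.76 for APOA4, and the arrays overlapped for APOM (0.06) and APOA1 (-0.20). Such a shift shows that 2 rows changed unequally and gives no comparison of their RNA amounts.

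Several apolipoprotein genes sit in clusters, and neighbours within a cluster differed. On chromosome 11 the order in RefSeq (GRCh38.p14) is APOA5, APOA4, APOC3, APOA1. APOA4 and APOC3, the inner genes, were those that lay above CTRL in gamma_ON, while APOA1 on one side stood at 0.20. On the other side APOA5, a regulator of plasma triglyceride, was at 8.54 and 8.16 in CTRL, 8.10 and 8.28 in gamma_ON, and 8.42 and 8.47 in gamma_OFF. It was not called (-0.16 in gamma_ON, adjusted p = 0.672 by limma, and 0.09 in gamma_OFF, adjusted p = 0.708). The within-array difference APOC3 minus APOA1 was -1.01 and -0.71 in CTRL, 0.65 and 0.59 in gamma_ON, and -0.01 and -0.31 in gamma_OFF, so the 3 groups did not overlap.

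On chromosome 19 APOE lies beside APOC1, which encodes a small HDL and VLDL protein and is no member of the 7. APOC1 was at 7.03 and 6.92 in CTRL, 7.54 and 7.69 in gamma_ON, and 6.56 and 6.71 in gamma_OFF. It rose in gamma_ON by 0.64 (SE 0.12, adjusted p = 0.0421 by limma). That call was lost without CTRL replicate 1 (adjusted p = 0.166), CTRL replicate 2 (0.331), gamma_ON replicate 1 (0.184) or gamma_ON replicate 2 (0.255), and after rescaling of the signal range (0.0605). Gamma_ON exceeded gamma_OFF by 0.98 (SE 0.12, adjusted p = 0.00609, and 0.0539 and 0.0649 without gamma_ON replicate 1 and 2). APOC1P1, a pseudogene copy of APOC1 beside it, can share probe sequence with APOC1, which makes the APOC1 row uncertain. APOC1 minus APOE was 0.13 and -0.15 in CTRL, 0.69 and 0.93 in gamma_ON, and -0.26 and -0.33 in gamma_OFF, without overlap among the groups.

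**Figure D3:**
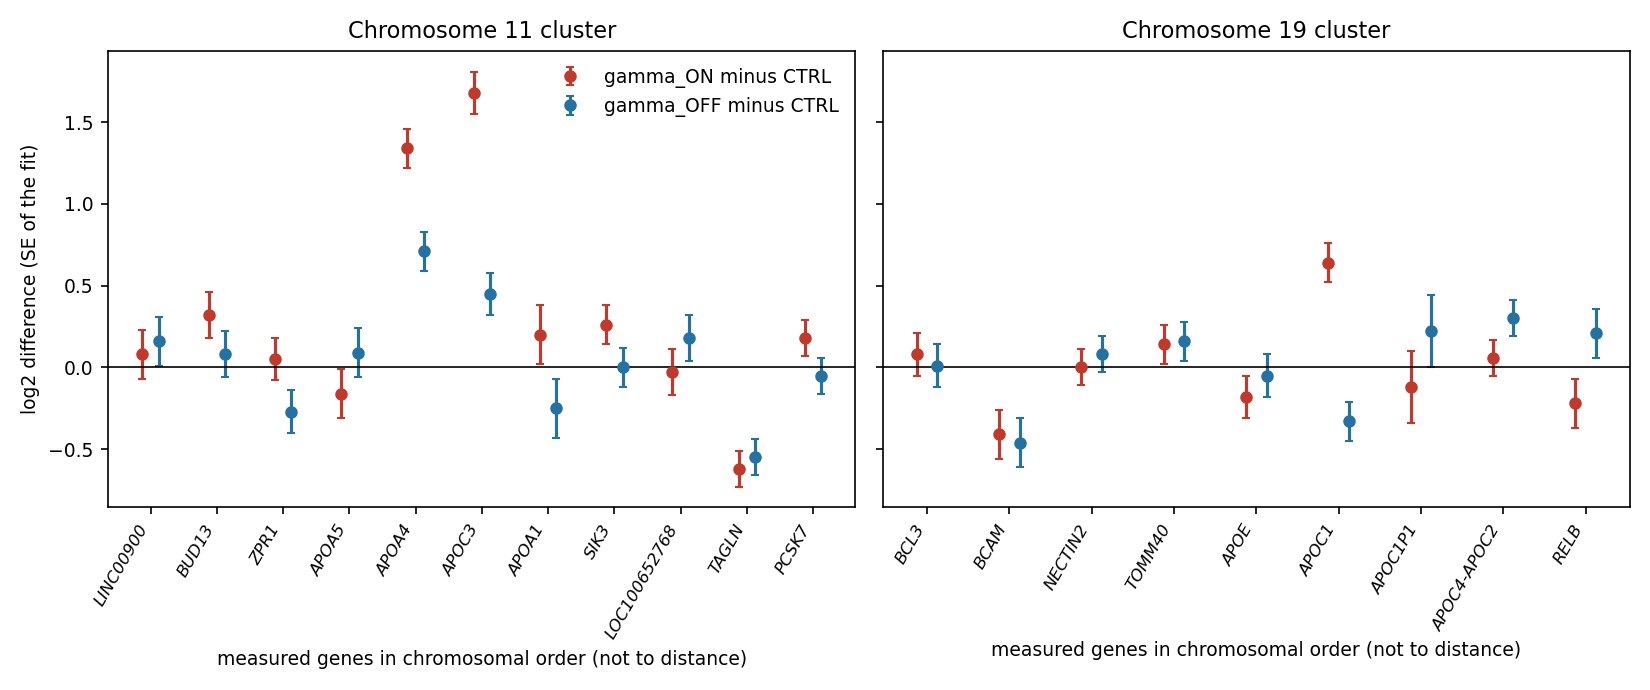
Log2 difference from CTRL (y axis, bars are the SE of the limma fit) of the measured genes around APOA4, APOC3 and APOA1 on chromosome 11 and around APOE on chromosome 19, in chromosomal order on the x axis, gamma_ON in red and gamma_OFF in blue. APOA4, APOC3 and APOC1 lie above their neighbours in gamma_ON, and TAGLN lies below 0 for both vectors.

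Taking the 4 nearest measured genes on each side of each member gave 40 genes that are not members. Limma called 2 of the 40 in gamma_ON against CTRL (APOC1 and TAGLN, where 1.55% of all genes were called in either direction), 3 in gamma_OFF against CTRL (TAGLN, RHOB and CFAP126, where 8.85% were) and 1 in gamma_ON against gamma_OFF (APOC1, where 5.99% were). TAGLN, a smooth muscle actin-binding gene, fell by 0.62 in gamma_ON (adjusted p = 0.0304, and 0.187 to 0.243 without any 1 CTRL or gamma_ON array). In gamma_OFF it fell by 0.55 (adjusted p = 0.0235, and 0.053 to 0.143 without either CTRL array, either gamma_ON array or gamma_OFF replicate 2). RHOB, a small GTPase gene near APOB, fell by 0.84 in gamma_OFF (adjusted p = 0.0212, and 0.133, 0.0606 and 0.0857 without CTRL replicate 1, CTRL replicate 2 and gamma_OFF replicate 2). CFAP126, near APOA2, fell by 0.52 (adjusted p = 0.0475, and 0.0837 to 0.272 without either CTRL array, either gamma_ON array or gamma_OFF replicate 2). Nothing particular to the neighbours is read from these counts. The 8 neighbours of APOB ran from -0.33 to 0.14 in gamma_ON, and those of APOA2 from -0.27 to 0.34.

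Profiles over the 6 arrays were compared by the Euclidean distance between values centred on each gene's mean, for the 4 members that spanned at least 1 log2 unit. APOB was nearest to FGB, the fibrinogen beta chain gene (distance 0.35), then to GSTA2 (0.61) and HAVCR1 (0.78). FGB stood at 8.24 and 7.78 in CTRL, 10.14 and 10.22 in gamma_ON, and 7.31 and 7.21 in gamma_OFF. APOA2 was nearest to the metallothionein gene MT1F (0.36), PRTG (0.37) and TTR (0.42), which encodes the plasma carrier transthyretin. APOC3 was nearest to HAND1 (0.26), TMT1A (0.30) and MIR4521 (0.31). APOA4 was nearest to SYT4 (0.32), DKK4 (0.38) and ACAT2 (0.44). No other member stood among these nearest genes. Between members the smallest distances were 0.64 for APOA4 and APOC3, 0.66 for APOA1 and APOM, and 0.77 for APOA4 and APOM, and the largest was 3.27 for APOB and APOE. These distances describe 6 arrays that share 3 groups.

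Of 99 listed genes of the wider lipoprotein pathway that are not members, 49 were measured. Limma called 1 of them higher and 0 lower in gamma_ON against CTRL, with 10 at an unadjusted p under 0.05 and 0.739% of all genes called higher. Over all 14884 genes 2203 had an unadjusted p under 0.05 there. In gamma_OFF against CTRL 7 of 49 fell and 0 rose, with 18 unadjusted, where 6.08% of all genes were called lower. Over all genes 4519 had an unadjusted p under 0.05 in that comparison. After rescaling of the signal range 4 of the 49 fell and 1 rose, where 562 of all genes were called lower and 328 higher. In gamma_ON against gamma_OFF 5 were higher and 2 lower, where 3.98% and 2.02% of all genes were. Nothing particular to the pathway is read from the gamma_ON count against CTRL or from the unadjusted counts. The median difference was 0.01, -0.12 and 0.14, beside 0.02, 0.01 and 0.02 over all genes. Leaving out 1 array moved the 3 counts of calls between 0 and 2, 0 and 11, and 1 and 14. The highest counts of the last 2 came without gamma_OFF replicate 1, and without gamma_OFF replicate 2 both were 4.

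Among 14 measured genes of lipoprotein assembly and secretion, MTTP encodes the microsomal protein that loads lipid onto APOB. MTTP was at 6.87 and 6.56 in CTRL, 7.44 and 7.41 in gamma_ON, and 6.23 and 5.93 in gamma_OFF, without overlap and in the same order of groups as APOB. It stood at 0.71 in gamma_ON against CTRL (SE 0.15, adjusted p = 0.0576 by limma). MTTP was called there with only the 2 groups compared (adjusted p = 0.037). Of 12 other fits 6 left it not called, among them those without a CTRL or gamma_ON array. MTTP fell by 0.64 in gamma_OFF (SE 0.15, adjusted p = 0.0373) and was 1.35 higher in gamma_ON than in gamma_OFF (SE 0.15, adjusted p = 0.00306). SAR1B, a GTPase gene of the coat that carries chylomicrons out of the endoplasmic reticulum, fell by 0.51 in gamma_OFF (adjusted p = 0.0379). The MTTP fall in gamma_OFF had adjusted p-values of 0.0702 to 0.203, and the SAR1B fall 0.0721 to 0.179, without either CTRL array, either gamma_ON array or gamma_OFF replicate 2. No gene of this list was called by limma in gamma_ON against CTRL, with 4 of 14 at an unadjusted p under 0.05, and the remaining 12 were not called in gamma_OFF.

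All 7 measured receptor and adaptor genes had a negative difference in gamma_OFF against CTRL, of which 3 fell and 4 did not pass, where 6.08% of all genes were called lower. Their median was -0.47, beside 0.01 over all genes. VLDLR, the receptor for triglyceride-rich particles, was at 8.57 and 8.76 in CTRL, 8.34 and 8.31 in gamma_ON, and 7.98 and 7.83 in gamma_OFF. It fell by 0.76 in gamma_OFF (SE 0.12, adjusted p = 0.0123 by limma, 0.111 without CTRL replicate 2 and 0.0486 without gamma_OFF replicate 2). LRP2, the large endocytic receptor megalin, fell by 0.73 (adjusted p = 0.0137, then 0.042 with gamma_OFF replicate 2 left out, and 0.107 and 0.0521 with CTRL replicate 1 and 2 left out in turn). LRP1, a receptor for APOE-bearing remnants, fell by 0.47 (adjusted p = 0.0473, and 0.0826 to 0.237 without either CTRL array, either gamma_ON array or gamma_OFF replicate 2). Against gamma_OFF, gamma_ON was higher for CUBN, the partner receptor of megalin that takes up HDL proteins (0.97, adjusted p = 0.0298), and for LRP2 (0.59, adjusted p = 0.0391). CUBN had 0.237, 0.104 and 0.11 without gamma_ON replicate 1, gamma_ON replicate 2 and gamma_OFF replicate 2, and LRP2 had 0.0625 to 0.261 without any 1 array other than gamma_OFF replicate 1. In gamma_ON against CTRL limma called 0 of the 7, with 2 at an unadjusted p under 0.05.

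Of 6 measured genes of HDL formation, lipid transfer and lipases, LCAT, the plasma enzyme that esterifies HDL cholesterol and is activated by APOA1, fell by 0.74 in gamma_OFF (SE 0.13, adjusted p = 0.0132 by limma, 0.0819 and 0.101 without CTRL replicate 1 and 2, and 0.0344 without gamma_OFF replicate 2). In gamma_ON it stood at -0.36 (adjusted p = 0.223). ANGPTL8, which regulates lipoprotein lipase, was lower in gamma_ON than in gamma_OFF by 0.58 on the log2 scale (log2 difference -0.58, adjusted p = 0.0438, and 0.0756 to 0.299 without any 1 array other than gamma_OFF replicate 1). In gamma_ON against CTRL 0 of 6 were called by limma, with 1 at an unadjusted p under 0.05.

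Of 10 measured other apolipoprotein genes, APOC1 alone was called in gamma_ON against CTRL, and limma called 0 in gamma_OFF against CTRL, with 4 at an unadjusted p under 0.05. APOO, which encodes a protein of the mitochondrial inner membrane rather than a plasma lipoprotein, was lower in gamma_ON than in gamma_OFF (log2 difference -0.60, adjusted p = 0.0424, and 0.0736 to 0.282 without either CTRL array or either gamma_ON array). The list median in gamma_ON was -0.17, beside 0.02 over all genes.

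Of 28 listed transcription factors of apolipoprotein genes, 12 were measured. In gamma_ON against CTRL limma called 0 of the 12, with 0 at an unadjusted p under 0.05, and the median was 0.09. FOXA2, a forkhead factor of endoderm, was at 7.85 and 7.71 in CTRL, 7.87 and 7.87 in gamma_ON, and 7.76 and 7.69 in gamma_OFF. Its difference from CTRL was 0.08 in gamma_ON (adjusted p = 0.814) and -0.06 in gamma_OFF (adjusted p = 0.745). FOXA1 stood at 0.36 in gamma_ON (adjusted p = 0.348). GATA6, a factor of primitive endoderm and heart, fell by 0.56 in gamma_OFF (adjusted p = 0.0433, 0.0636 to 0.218 without any 1 array other than gamma_OFF replicate 2, and 0.0488 without that) and was 0.86 higher in gamma_ON than in gamma_OFF (adjusted p = 0.0167, and 0.185 and 0.0778 without gamma_ON replicate 1 and 2).

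**Figure D4:**
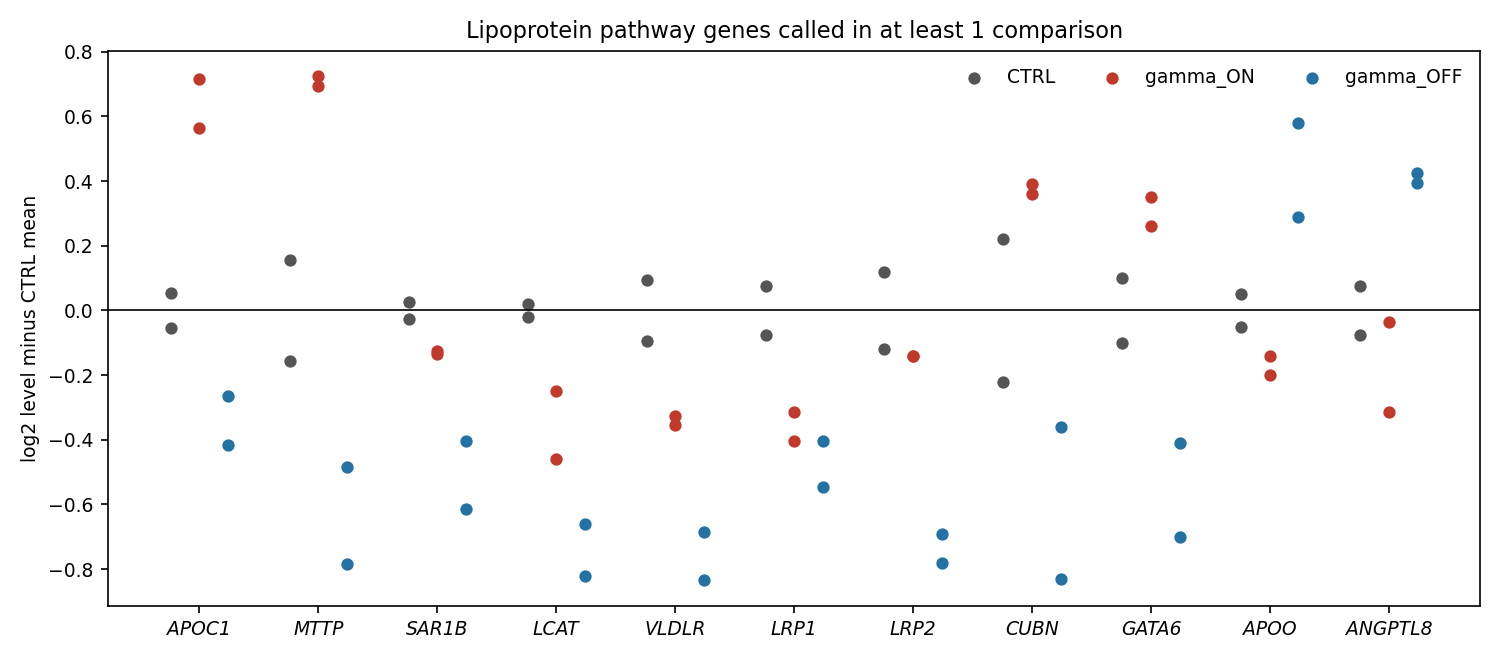
Log2 level minus the mean of the 2 CTRL arrays (y axis) for the 11 measured pathway genes called in at least 1 comparison (x axis), with 1 dot per array and colours for the 3 groups. MTTP and CUBN are highest in gamma_ON and lowest in gamma_OFF, and VLDLR, LRP2 and LCAT are lowest in gamma_OFF.

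Among markers of cell types that make apolipoproteins, plasma protein genes of hepatocytes and yolk sac were high on the same arrays as APOB, and their part in the results was not tested. Of 16 measured, 8 rose in gamma_ON against CTRL, 0 fell and 8 did not pass, where 0.739% of all genes were called higher and 0.806% lower. AFP, alpha-fetoprotein, rose by 4.37 (adjusted p = 2.54e-06 by limma), AHSG by 3.41, FGA by 3.10 and FGG by 3.02. ALB, albumin, stood at 0.49 (adjusted p = 0.0763). The mean of the 16 genes was 6.45 to 6.6 on the CTRL arrays, 7.93 to 7.98 in gamma_ON and 6.66 to 6.70 in gamma_OFF. In gamma_OFF against CTRL 3 of the 16 rose and 2 fell, where 2.77% of all genes were called higher and 6.08% lower: AFP rose by 1.02 (adjusted p = 0.00743, and 0.0558 without CTRL replicate 2), ITIH2 by 0.59 and AHSG by 0.65, while TTR fell by 0.96 and FGB by 0.75. Without gamma_OFF replicate 2 AFP and TTR had adjusted p-values of 0.0173 and 0.0486. Without CTRL replicate 1 TTR and FGB had adjusted p-values of 0.087 and 0.152, and FGB had 0.0976 without gamma_OFF replicate 2 and 0.0555 without either gamma_ON array. ITIH2 had 0.147, 0.102 and 0.062 without CTRL replicate 1, CTRL replicate 2 and gamma_OFF replicate 2, and AHSG had 0.0697 to 0.27 without any 1 array other than CTRL replicate 1.

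Of 16 listed intestinal markers 8 were measured, and FABP2, CDH17, ALPI and MUC2 were among those without a named row. Limma called 0 of the 8 in gamma_ON against CTRL, with 2 at an unadjusted p under 0.05. There 1.55% of all genes were called in either direction, so 0 calls in so short a list lies near that share. Nothing is read from it. The mean of the 8 was 6.36 to 6.43 in CTRL, 6.50 to 6.55 in gamma_ON and 6.53 to 6.57 in gamma_OFF. VIL1, villin of the brush border, stood at 0.21 in gamma_ON (adjusted p = 0.551), and CDX2, the intestinal homeobox factor, at 0.13 (adjusted p = 0.691). KRT20 rose by 0.47 in gamma_OFF (adjusted p = 0.0415) and LGR5 was 0.58 higher in gamma_ON than in gamma_OFF (adjusted p = 0.0494). KRT20 had 0.0735 to 0.22 without any 1 array other than gamma_OFF replicate 1, and LGR5 had 0.0618 to 0.319 without any 1 of the 6 arrays. Among 10 measured endoderm markers EOMES, a factor of mesendoderm, rose in gamma_ON by 1.18 (adjusted p = 0.00294, and 0.0522 without gamma_ON replicate 1). CXCR4 fell by 0.62 (adjusted p = 0.0398, and 0.189 to 0.288 without any 1 CTRL or gamma_ON array). EOMES was 1.64 higher in gamma_ON than in gamma_OFF (adjusted p = 0.000342 by limma), and was called in each of 13 other fits. Between gamma_ON and gamma_OFF DKK1, a Wnt inhibitor gene, was 0.71 higher in gamma_ON (adjusted p = 0.0406), and LEFTY1, a Nodal inhibitor gene, 0.77 lower (log2 difference -0.77, adjusted p = 0.0254). DKK1 had 0.0696 to 0.29 without any 1 array other than gamma_OFF replicate 1, and LEFTY1 0.0883 to 0.142 without either gamma_ON array or gamma_OFF replicate 2.

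Other sources of APOE and of carried-over RNA were checked in the same way, and their part in the results was not tested. Of 10 listed macrophage markers 5 were measured, and of 8 listed astrocyte and radial glia markers 4 were. Limma called 0 of these in all 3 comparisons, with at most 2 of either list at an unadjusted p under 0.05. Over all genes 1.55%, 8.85% and 5.99% were called in either direction, so nothing is read from 0 calls in lists this short. The largest differences were 0.51 for the myeloid adaptor gene TYROBP in gamma_OFF (adjusted p = 0.0600) and -0.44 for the glial gene S100B in gamma_ON against gamma_OFF (adjusted p = 0.123). The feeder layer was of mouse fibroblasts and the arrays were human, so human fibroblast markers cannot show how much feeder RNA was present. Of 9 listed fibroblast markers, 3 were measured. Limma called 0 of these 3 in gamma_ON against CTRL, with 2 at an unadjusted p under 0.05. Their mean was 7.68 to 7.87 in CTRL, 8.09 to 8.16 in gamma_ON and 7.45 to 7.64 in gamma_OFF. The 3 genes differed among themselves: LUM stood at 0.86 in gamma_ON and -0.24 in gamma_OFF against CTRL, DCN, decorin, at 0.43 and 0.02, and THY1, a surface antigen gene, at -0.22 and -0.47, none of them called (adjusted p from 0.0601 to 0.92). LUM, lumican, was 1.10 higher in gamma_ON than in gamma_OFF (adjusted p = 0.026, and 0.194, 0.104 and 0.11 without gamma_ON replicate 1, gamma_ON replicate 2 and gamma_OFF replicate 2, and 0.0565 after rescaling). Of 11 pluripotency markers POU5F1 rose in gamma_ON by 0.71 (adjusted p = 0.0441, and 0.113 to 0.283 without any 1 CTRL or gamma_ON array, and 0.0762 after rescaling), NANOG stood at 0.25 (adjusted p = 0.654) and SOX2 at 0.24 (adjusted p = 0.389). POU5F1 has near-identical pseudogenes, so its row is uncertain. In gamma_OFF DNMT3B and PRDM14 rose by 0.46 and 0.54 (adjusted p = 0.0489 and 0.0244), with adjusted p-values of 0.085 to 0.211 and 0.0555 to 0.153 without either CTRL array, either gamma_ON array or gamma_OFF replicate 2.

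**Figure D5:**
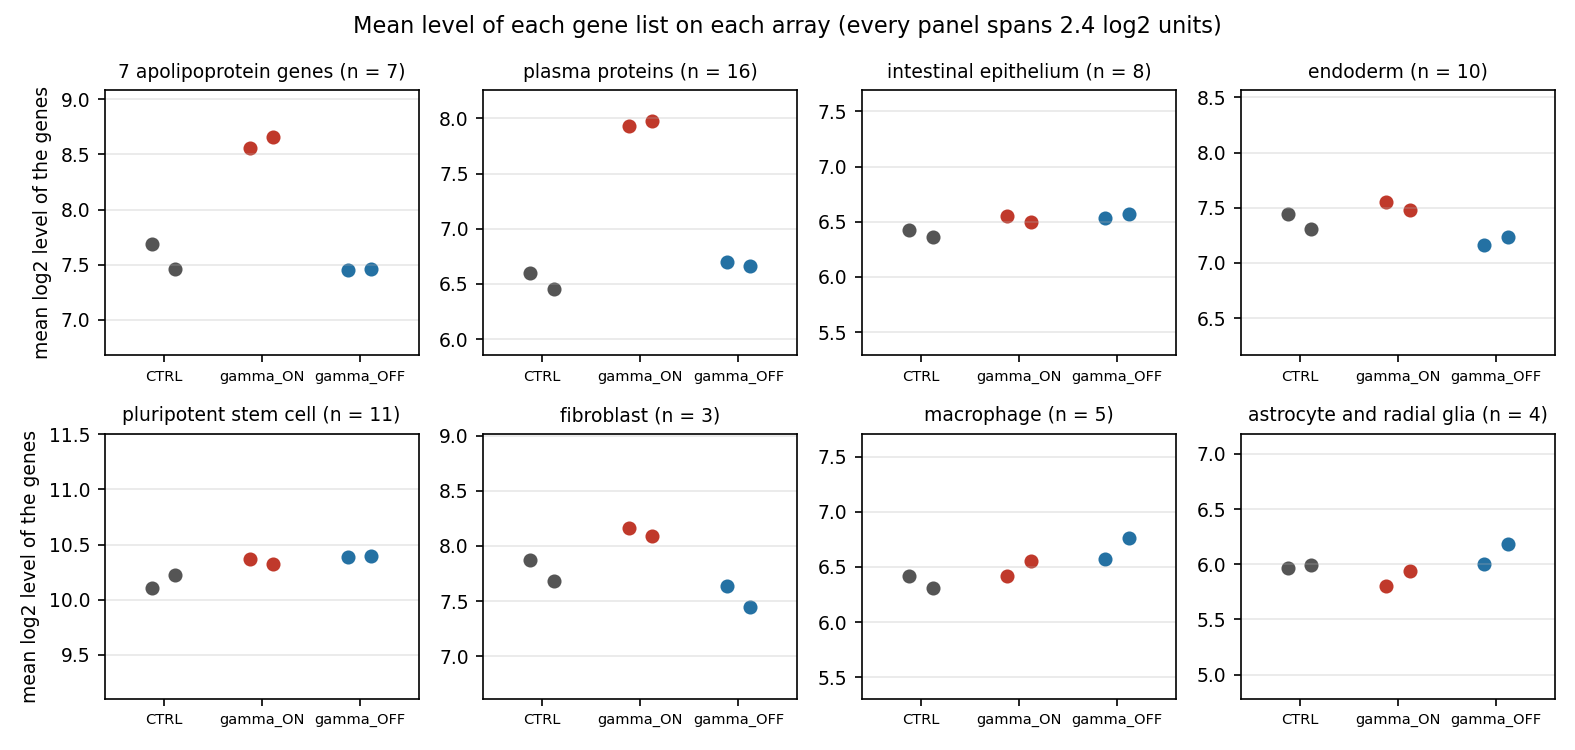
Mean log2 level of the measured genes of each list (y axis) on each array, with 1 dot per array, for the 7 apolipoprotein genes and 7 marker lists, with panels of equal height in log2 units. The apolipoprotein and plasma protein panels are high in gamma_ON, while the intestinal panel stays between 6.36 and 6.57 and the macrophage panel between 6.31 and 6.76.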

How the data were processed

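Total RNA of 6 samples was measured on whole-transcript human gene arrays, 1 for each sample, grouped by the sample descriptions. The authors deposited log2 values. RMA and Partek 6.6 are named per the submitters' processing notes, and no source used here gives a genome build. Column medians ran from 6.11 to 6.25. Of 53617 rows, 16098 had 1 gene symbol in the platform table, 0 had several and 37519 were unnamed here. All 16098 identifiers matched RefSeq (GRCh38.p14). For the 779 genes with several rows the brightest was used, leaving 14884 genes. Limma 3.58.1 in R 4.3.3 (lmFit, eBayes, 1 fit of 6 arrays, 3 residual and 6.05 prior degrees of freedom) gave 3 two-sided contrasts, adjusted by Benjamini-Hochberg over all genes. The script was tested on simulated data. Exact tests were not used, since 2 against 2 arrays cannot reach the threshold. At most 14 of the 14884 genes had exactly equal deposited values, with no tolerance, on any 2 arrays.

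The members, the 5 pathway and 7 marker lists, and the alternatives were chosen with earlier results of these data known. Genes named from a list are up to 4 called genes with the largest difference per comparison, or else the gene with the largest difference. MTTP, FOXA2, LRP1, LCAT, POU5F1, NANOG and SOX2 were always named, as were called neighbours and the 3 nearest profiles. APOA5, ALB, ITIH2, VIL1, CDX2 and DCN lie outside that rule and were chosen after their values were seen. Alternatives were trend and robust fitting, array weights, only the groups compared, the replicate block, a filter on dim genes, rescaling of the signal range, the mean of rows, and each array left out. The precision is limited by 2 arrays a group.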

Additional observations from a re-analysis of the deposited data

How the results depend on the processing

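For the 7 apolipoprotein genes, the called differences kept their direction under every alternative run, while APOA1 against CTRL, and APOE and APOM in gamma_OFF against CTRL, did not. Most alternatives could not reverse a called difference, so nothing is read from its kept direction. Trend and robust fitting, array weights, the fit of only the groups compared, the replicate block and the dim filter left the differences unchanged. Groups without overlap keep their direction when 1 array is left out. The APOA4 call in gamma_ON against gamma_OFF was lost with array weights (0.63), with only the 2 groups compared (0.63) and after rescaling of the signal range (0.58). The count of the 7 genes called ran from 3 to 5 in gamma_ON against CTRL, from 1 to 2 in gamma_OFF against CTRL and from 3 to 5 in gamma_ON against gamma_OFF with 1 array left out. Counts over all genes ran from 34 to 487, from 131 to 3515 and from 49 to 4061 in the same order, against 230, 1317 and 892. With the intensity trend and robust fitting they were 381 in gamma_ON against CTRL and 1596 in gamma_ON against gamma_OFF. With array weights they were 803, 767 and 229, and with only the 2 groups compared 487, 567 and 275. In gamma_ON against gamma_OFF 1495 were called with dim genes left out and 443 after rescaling of the signal range. The cause was not tested.

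Pathway genes called in gamma_ON against CTRL were 1, against 3 with trend and robust fitting, 4 with array weights, 2 with only the groups compared and 0 after rescaling (10 at an unadjusted p under 0.05 by limma in the fit used). In gamma_OFF against CTRL they were 7, against 3 with array weights and 3 with only the groups compared. In gamma_ON against gamma_OFF they were 7, against 3 and 4. With 1 array left out the 3 counts ran from 0 to 2, from 0 to 11 and from 1 to 14. A left-out array leaves 1 array in a group, which is then assumed to vary like the others. Same-numbered arrays did not deviate together over all genes (correlations of deviations -0.096, -0.073 and 0.088 between the groups). That cannot show whether same-numbered arrays were made together, and the fit used did not pair them. With the replicate number as a block, 210, 1245 and 871 genes were called, 5, 2 and 5 of the 7 genes, and 1, 7 and 8 pathway genes; among genes named above it ended the calls of APOC1 and CXCR4 in gamma_ON against CTRL (adjusted p = 0.0566 and 0.052), of DNMT3B, GATA6, KRT20 and CFAP126 in gamma_OFF against CTRL (0.0617, 0.0525, 0.0524 and 0.0587) and of LGR5 in gamma_ON against gamma_OFF (0.0551), and called MTTP in gamma_ON (0.0393). Rescaling of the signal range also ended the calls of AHSG, CFAP126, GATA6, KRT20, LRP1, SAR1B, TAGLN and TTR in gamma_OFF against CTRL (adjusted p from 0.0509 for TTR to 0.104 for LRP1) and of LGR5 in gamma_ON against gamma_OFF (0.0672). Array weights ended the calls of AHSG, CFAP126, DNMT3B, FGB, GATA6, KRT20, LRP1, MTTP and SAR1B in gamma_OFF against CTRL (adjusted p from 0.0521 for SAR1B to 0.0891 for AHSG) and of ANGPTL8, APOO, CUBN, DKK1, LEFTY1, LGR5, LRP2 and LUM in gamma_ON against gamma_OFF (from 0.0557 for CUBN to 0.0855 for LGR5).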
